A study of Mus musculus with 8 samples.

Results

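The cell cycle genes described here are 36 transcripts that mark cycling cells, 18 of S phase and 18 of G2 and mitosis (G2/M), taken by name from a set list. They are 36 of the 55422 features counted, and all 36 were detected in every library. The S phase genes were Mcm2, Mcm3, Mcm4, Mcm5, Mcm6, Mcm7, Pcna, Ccne1, Ccne2, Cdc6, Cdc45, Gins2, Rrm1, Rrm2, Tyms, Slbp, Fen1 and Rpa2. The G2/M genes were Mki67, Top2a, Cdk1, Ccnb1, Ccnb2, Ccna2, Cdc20, Bub1, Bub1b, Aurka, Aurkb, Plk1, Birc5, Cenpe, Cenpf, Kif11, Tpx2 and Ube2c.

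The study asked what the loss of active DNA demethylation does to cells of the early mouse embryo. It used chimaeras, in which embryonic stem cells lacking the TET enzymes Tet1, Tet2 and Tet3 (Tet-TKO) and carrying a tdTomato reporter had been injected into wildtype blastocysts. Pooled embryos were dissociated and sorted into tdTomato-positive Tet-TKO cells, on a mixed C57BL/6J-129Sv background, and tdTomato-negative wildtype (WT) host cells, on a C57BL/6J background. Transcripts were counted in single cells from their 3′ ends as unique molecular identifiers (UMIs) in 4 Tet-TKO and 2 WT host libraries at embryonic day (E) 8.5 and in 1 library of each genotype at E7.5. Genotype, strain background, reporter and passage through stem cell culture go together in each library and cannot be told apart. The Tet-TKO cells came from an existing stem cell line into which an H2B-tdTomato construct under the CAG promoter was transfected before puromycin selection, and the embryos were carried by CD1 recipients. The host fraction also held visceral endoderm, extraembryonic ectoderm and most erythroid cells, which were rare or absent in the Tet-TKO fraction.

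S phase begins once the MCM helicase, loaded on replication origins in G1, is switched on by cyclin E and CDC7 kinases, and many genes of this step are controlled by E2F transcription factors. Later in the cycle cyclin A and cyclin B with CDK1 drive entry into mitosis, and the genes needed then are switched on together through the MuvB complex, B-MYB, FOXM1 and NF-Y. Cells of the gastrulating and early organogenesis mouse embryo divide rapidly, and levels of these transcripts are used to place single cells in the cycle.

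The 2 gene sets differed in the letters of their promoters. Promoters of 300 bases, 250 before and 50 after the transcription start, were taken from RefSeq (GRCm38.p6) for 15 S phase genes (17 windows, since Mcm7 and Fen1 have 2 each) and 15 G2/M genes. Mcm4, Ccne2, Gins2, Ccna2, Aurkb and Tpx2 had no entry in the table used. The cell cycle homology region (CHR, searched as TTTGAA or TTCGAA on both strands), the site of MuvB, was found in 12 of 15 G2/M windows (80.0%) and 4 of 17 S phase windows (23.5%), against 19.2% of all 32851 promoters. The CCAAT box, the site of NF-Y, was found in 93.3% of G2/M windows, 70.6% of S phase windows and 37.4% of all promoters. Core letters of E2F sites (TTCCCGC and, as other forms of it, TTCGCGC, the form TTGCCGC or the form TTGGCGC, both strands) were found in 3 of 15 G2/M windows, 10 of 17 S phase windows (58.8%) and 9.57% of all promoters. E2F letters overlapped a CCAAT box in 1 S phase window, 1 G2/M window and 148 of all promoters. A CHR match within 50 bases of the start was found for 11 of 15 G2/M genes and 1 S phase gene, and in 5.31% of all promoters. A match describes the letters only and is not evidence that a factor was bound.

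**Figure D1:**
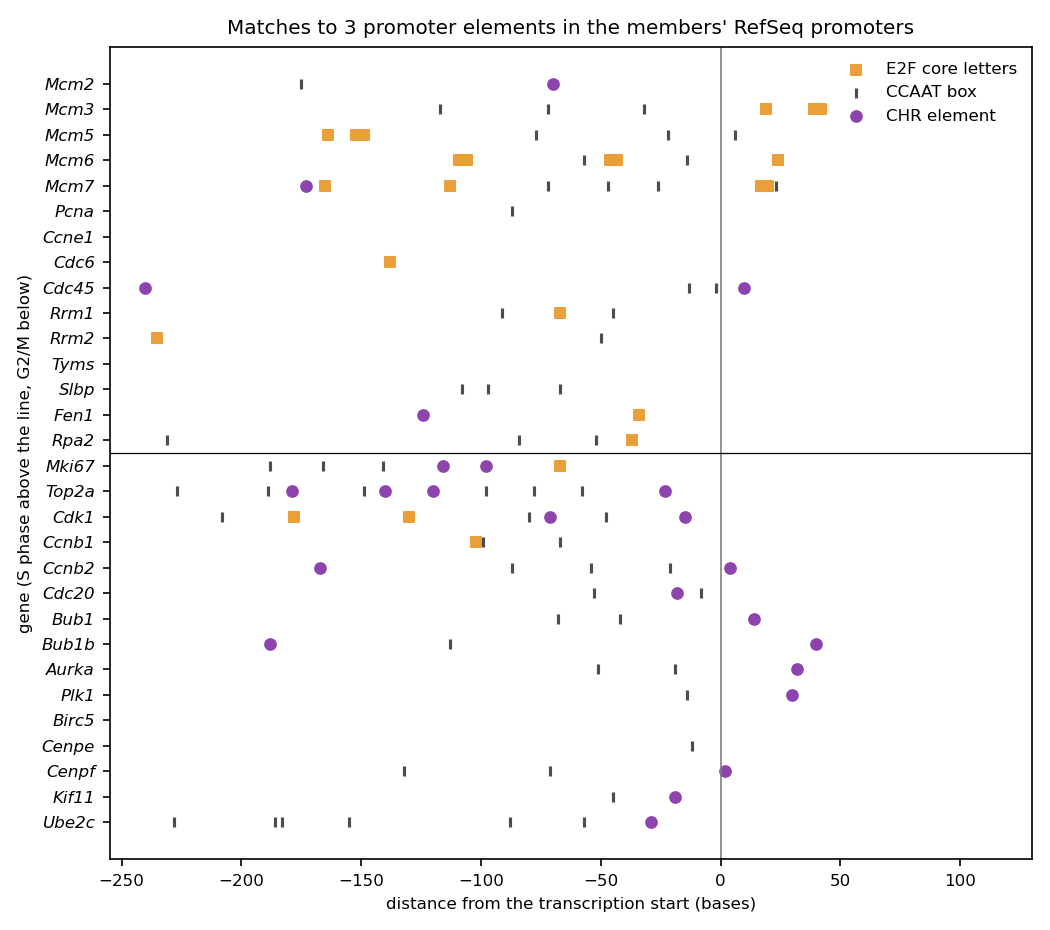
Position of each CHR, CCAAT and E2F match, on either strand, in bases from the transcription start, with 1 line per gene that has a RefSeq promoter (S phase genes above, G2/M genes below the black line). For Mcm7 and Fen1 matches of both windows are drawn from their own start. CHR matches of 11 G2/M genes lie within 50 bases of the start, while E2F letters occur mainly among S phase genes.

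The contrast is shown by 6 promoters. For the G2/M genes Plk1 (chr7:122159185-122159484, plus strand), Ccnb2 (chr9:70421505-70421804, minus strand) and Ube2c (chr2:164769679-164769978, plus strand), which had CHR and CCAAT matches, capitals mark both elements. For the S phase genes Mcm5 (chr8:75109259-75109558, plus strand) and Mcm6 (chr1:128359656-128359955, minus strand), the windows shown for their groups of E2F letters, capitals mark those letters. Their CCAAT boxes, 3 in Mcm5 and 2 in Mcm6, are left in lower case. Ccne1 (chr7:38107441-38107740, minus strand) is shown because it had the largest fold difference between the genotypes over all E8.5 cells. It had none of the 3 elements in its window, so it has no capitals.
Plk1: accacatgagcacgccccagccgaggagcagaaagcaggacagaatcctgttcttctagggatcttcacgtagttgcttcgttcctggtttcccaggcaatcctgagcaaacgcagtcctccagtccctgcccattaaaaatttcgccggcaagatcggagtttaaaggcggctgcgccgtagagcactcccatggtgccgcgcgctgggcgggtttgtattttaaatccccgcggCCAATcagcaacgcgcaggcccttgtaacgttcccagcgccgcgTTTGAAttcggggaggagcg
Ccnb2: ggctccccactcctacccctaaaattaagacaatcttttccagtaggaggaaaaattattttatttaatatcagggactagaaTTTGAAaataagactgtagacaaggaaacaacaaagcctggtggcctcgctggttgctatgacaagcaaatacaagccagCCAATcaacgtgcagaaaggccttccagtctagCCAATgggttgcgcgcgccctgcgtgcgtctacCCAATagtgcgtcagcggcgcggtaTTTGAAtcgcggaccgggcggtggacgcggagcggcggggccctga
Ube2c: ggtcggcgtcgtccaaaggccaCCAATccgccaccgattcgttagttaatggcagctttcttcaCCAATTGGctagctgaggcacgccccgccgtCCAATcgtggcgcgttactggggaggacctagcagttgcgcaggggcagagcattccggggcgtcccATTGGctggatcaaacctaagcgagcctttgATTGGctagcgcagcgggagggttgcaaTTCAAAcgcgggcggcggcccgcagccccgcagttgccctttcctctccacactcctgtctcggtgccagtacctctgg
Mcm5: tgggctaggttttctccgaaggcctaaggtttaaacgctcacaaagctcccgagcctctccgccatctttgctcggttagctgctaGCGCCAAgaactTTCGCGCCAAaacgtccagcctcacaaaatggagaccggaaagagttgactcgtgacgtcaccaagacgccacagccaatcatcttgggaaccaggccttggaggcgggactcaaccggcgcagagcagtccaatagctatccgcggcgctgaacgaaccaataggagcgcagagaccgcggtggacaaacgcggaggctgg
Mcm6: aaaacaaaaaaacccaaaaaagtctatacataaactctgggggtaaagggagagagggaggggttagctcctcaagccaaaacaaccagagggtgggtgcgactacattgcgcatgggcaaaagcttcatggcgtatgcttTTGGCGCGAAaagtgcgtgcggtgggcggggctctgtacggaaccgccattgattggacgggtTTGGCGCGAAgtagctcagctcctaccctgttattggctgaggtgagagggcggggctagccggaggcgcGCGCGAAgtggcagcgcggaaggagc
Ccne1: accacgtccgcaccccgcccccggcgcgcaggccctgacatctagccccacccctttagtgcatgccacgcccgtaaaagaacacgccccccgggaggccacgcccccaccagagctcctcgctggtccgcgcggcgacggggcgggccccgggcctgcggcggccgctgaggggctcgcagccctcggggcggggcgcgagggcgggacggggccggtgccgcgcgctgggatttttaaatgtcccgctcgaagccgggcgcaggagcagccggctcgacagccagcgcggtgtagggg

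Depth differed between the libraries in a way that touches the values below. The kept cells numbered from 1012 to 9552 per library, with a median of 12176 to 20741 UMIs per cell except in E8.5 Tet-TKO libraries 3 and 4, where it was 40387 and 68704. By a chi-square over genes, for the 7 pairs of E8.5 libraries of the same genotype, none were duplicates, but Tet-TKO libraries 1 and 2 were close to each other (15.5 per degree of freedom), as were libraries 3 and 4 (17.8), against 140.5 to 189.5 for the other pairs. Between 0 and 28 cell barcodes were shared by any pair of libraries. The tdTomato transcript was at 71.5 to 144 counts per 1000000 UMIs of the library (CPM) in Tet-TKO and 0.444 to 0.938 CPM in WT host libraries. In E8.5 Tet-TKO and WT host libraries Tet1 was at 9.93 to 20.9 and 20.4 to 22.5 CPM, Tet2 at 5.55 to 10.5 and 4.63 to 4.67 CPM and Tet3 at 22.5 to 37.5 and 23.1 to 23.2 CPM. Tet1 and Tet3 overlapped between the genotypes, Tet2 was higher in all 4 Tet-TKO libraries, and counts from the 3′ end do not check the deletions. Haemoglobin transcripts took 1.96% and 4.80% of the UMIs of the E8.5 WT host libraries and 0.0599% to 0.169% of the Tet-TKO libraries.

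Summed over each set, with every cell counted alike, the level of S phase and of G2/M transcripts in E8.5 cells differed between the genotypes by less than the spread of the libraries. With cell groups weighted equally the difference in the S phase sum was larger than the SD of either genotype, though the ranges still overlapped. The S phase sum, the mean over cells of the UMIs of its 18 genes per 1000000 UMIs of the cell, was 2464, 2505, 2636 and 2739 in the Tet-TKO libraries, in the order 1 to 4, against 2572 and 2672 in WT host libraries 1 and 2. The G2/M sum was 2887, 2940, 2903 and 2673 in Tet-TKO and 2848 and 2893 in WT host libraries. In both sums the ranges of the genotypes overlapped, with Tet-TKO library 4 highest for S phase and lowest for G2/M. The Tet-TKO mean was 2586 ± 126 (SD, n = 4) against 2622 ± 70.7 (SD, n = 2) for S phase, a log2 ratio of -0.02, and 2851 ± 120.5 against 2870.2 ± 32.0 for G2/M, a log2 ratio of -0.01. No p-value is given for sums over a chosen list. Each of the 21 cell groups with at least 10 cells in every E8.5 library was then given equal weight. This removes differences in the shares of these groups, but not differences within a group. The S phase sum was then 2504 ± 95.3 against 2623 ± 8.41 (log2 ratio -0.07) and the G2/M sum 2819 ± 142 against 2909 ± 52.0 (log2 ratio -0.05). Of these 21 groups 16 had a lower Tet-TKO mean for S phase and 16 for G2/M, and every Tet-TKO library lay below both WT host libraries in 7 groups for S phase and 1 for G2/M, and above them in 1 group for each. Of the tests of single genes within cell groups 13.9% had every Tet-TKO library lower and 11.3% higher, but the share for sums over other gene sets was not computed.

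Gene by gene, the comparison of all E8.5 Tet-TKO cells with all WT host cells called none of the 36 members. UMIs were summed per library and tested with edgeR's quasi-likelihood test over 21075 genes, with the false discovery rate (FDR) of Benjamini and Hochberg. At 1% FDR and an absolute log2 fold change of at least 1, the thresholds of the study, 0 of 36 members and 2.65% of all genes were called. At 5% FDR with no minimum fold 0 of 36 members and 10.5% of all genes were called, and at an unadjusted p under 0.05 it was 1 of 36 (Ccne1) against 26.7%. By DESeq2 1 member, Ccne1, passed 5% FDR, as did 9.53% of the genes that it tested. The 95% interval of the log2 fold change lay between -1 and 1 for all 36 members, as it did for 11147 of the 21075 genes. A change of 2-fold or more thus lay outside the interval of each member in this fit. The fit takes the 4 Tet-TKO libraries as independent, though libraries 1 and 2 were close to each other, as were 3 and 4. With each of these pairs summed, 2.72% of all genes passed 5% FDR (edgeR), and intervals from that fit are not given. The fold changes ran from -0.49 (Ccne1) to 0.19 (Kif11), with a median of -0.05 over members and 0.02 over all genes, and 24 of 36 were negative. Before scaling by the trimmed mean of M-values (TMM) these medians were 0.02 and 0.11, so TMM moved both downwards. Every Tet-TKO library was lower than both WT host libraries for 6 members (17.9% of all genes) and higher for 2 members (23.1% of all genes).

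**Figure D2:**
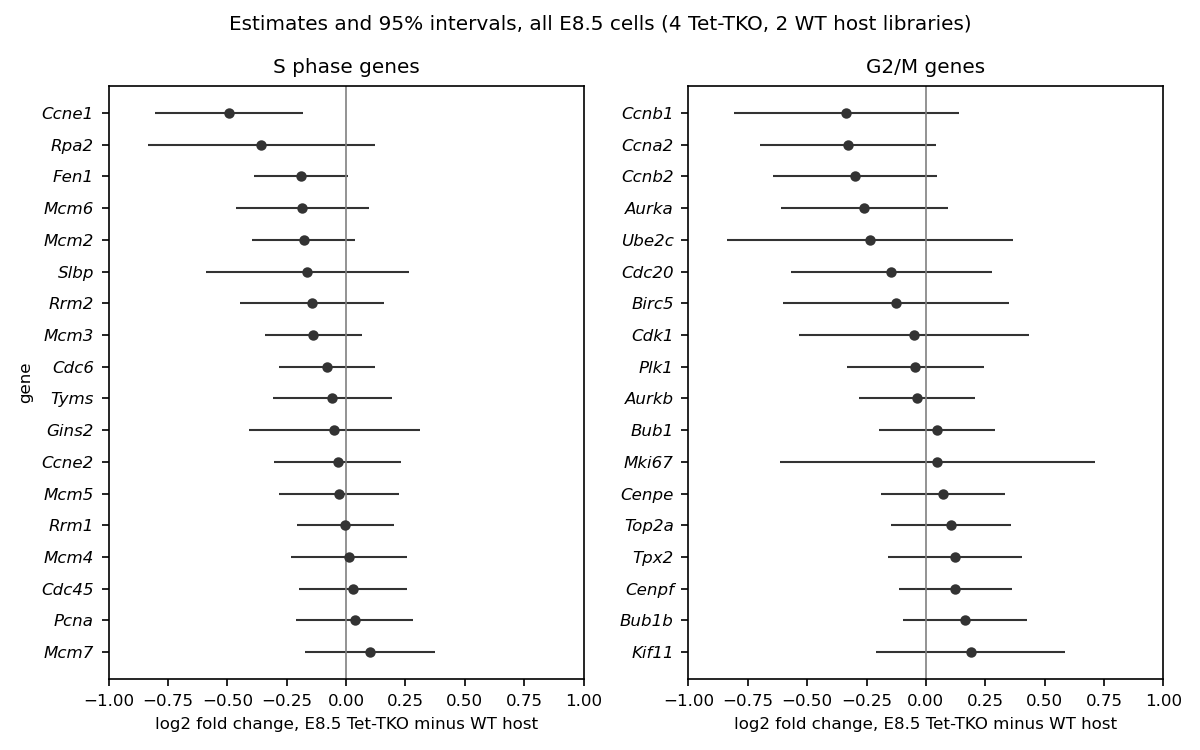
Log2 fold change (Tet-TKO minus WT host) of each S phase and G2/M gene over all E8.5 cells, with 4 Tet-TKO and 2 WT host libraries; points are edgeR estimates and bars their 95% intervals. All intervals lie between -1 and 1 and only that of Ccne1, at -0.49, leaves out 0.

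Among the S phase genes, Ccne1, which encodes the cyclin that drives entry into S phase with CDK2, had the largest difference over all E8.5 cells. Ccne1 was at 74.0, 80.0, 105 and 109.7 CPM in the Tet-TKO libraries, in the order 1 to 4, against 116 and 127 CPM in WT host cells. All 4 Tet-TKO libraries lay below both WT host libraries, those of libraries 3 and 4 by less. The log2 fold change of Ccne1 was -0.49 ± 0.13 (SE), with an unadjusted p of 0.00749 and an FDR of 0.0618 (edgeR). The fold change kept its sign with any library left out, between -0.59 and -0.41, and the FDR was then between 0.0605 and 0.339. With Tet-TKO libraries 1 and 2 alone it was -0.64 with an FDR of 0.00947. Within the 26 cell groups described below, the median log2 fold change of Ccne1 was smaller, at -0.17. It was negative in 21 groups and positive in 5. The part of cell make-up in the difference over all cells was not tested. Ccne2, the second cyclin E, did not show the difference that Ccne1 had over all cells. Ccne2 was at 38.3, 41.1, 37.0 and 43.0 CPM in the Tet-TKO libraries, in the order 1 to 4, against 40.3 and 37.0 CPM in WT host cells. The ranges overlapped, and the log2 fold change was -0.04 with a 95% interval of -0.30 to 0.23.

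The MCM genes encode the 6 subunits of the replicative helicase. Their log2 fold changes lay between -0.19 (Mcm6) and 0.10 (Mcm7), and all 6 ranges overlapped. Mcm6 was at 127, 124, 163 and 175 CPM in the Tet-TKO libraries, in the order 1 to 4, against 153 and 161 CPM in WT host cells. Mcm7 was at 172, 169, 219 and 238 CPM in the Tet-TKO libraries, in the order 1 to 4, against 173 and 176 CPM in WT host cells. In both genes Tet-TKO libraries 3 and 4 stood above all other E8.5 libraries. Cdc6, which loads the helicase, and Cdc45 and Gins2, which complete it, had log2 fold changes of -0.08, 0.03 and -0.05 with 95% intervals that lay between -0.41 and 0.31.

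Rrm2, the regulated subunit of ribonucleotide reductase, had a log2 fold change of -0.14, Rrm1, the large subunit, -0.0026 and Tyms, thymidylate synthase, -0.06. Tyms was among the steadiest members, at 168 to 177 CPM in Tet-TKO and 170.3 to 172 CPM in WT host libraries. Pcna, the sliding clamp, had a log2 fold change of 0.04, Fen1, the flap nuclease, -0.19 and Slbp, which binds histone mRNA in S phase, -0.16. Rpa2 was at 116, 125, 92.6 and 92.4 CPM in the Tet-TKO libraries, in the order 1 to 4, against 125 and 134 CPM in WT host cells. For this gene, a subunit of the single-strand binding protein RPA, the Tet-TKO libraries lay below the WT host libraries, library 2 by less than 1 CPM. The log2 fold change of Rpa2 was -0.36 ± 0.20 (SE), with an unadjusted p of 0.12 and an FDR of 0.306 (edgeR).

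Among the G2/M genes, the cyclins that activate CDK1 were lower in every Tet-TKO library, without passing the test. Ccna2 was at 152, 153, 131 and 128 CPM in the Tet-TKO libraries, in the order 1 to 4, against 166 and 169 CPM in WT host cells. Ccnb1 was at 175, 173, 141 and 128 CPM in the Tet-TKO libraries, in the order 1 to 4, against 186 and 185 CPM in WT host cells. Ccnb2 was at 102, 99.0, 87.4 and 87.4 CPM in the Tet-TKO libraries, in the order 1 to 4, against 111 and 108 CPM in WT host cells. For each of these cyclins libraries 3 and 4 were lowest and libraries 1 and 2 lay between them and the WT host libraries. Their log2 fold changes were -0.33 for Ccna2 (FDR 0.235), -0.33 for Ccnb1 (FDR 0.329) and -0.30 for Ccnb2 (FDR 0.245, edgeR). Cdk1 itself overlapped. Cdk1 was at 272, 264, 218 and 195 CPM in the Tet-TKO libraries, in the order 1 to 4, against 241 and 227 CPM in WT host cells. Here libraries 1 and 2 lay above and libraries 3 and 4 below the WT host libraries, and the log2 fold change was -0.05.

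The mitotic kinases and their partners went both ways. Aurka was at 84.9, 88.2, 85.0 and 70.8 CPM in the Tet-TKO libraries, in the order 1 to 4, against 91.6 and 95.2 CPM in WT host cells. Tpx2 was at 157, 168, 166 and 151 CPM in the Tet-TKO libraries, in the order 1 to 4, against 134 and 145 CPM in WT host cells. Aurka, the kinase of the spindle poles, was lower in all Tet-TKO libraries, and Tpx2, its activator, higher in all of them. Their log2 fold changes were -0.26 (FDR 0.311) and 0.12 (FDR 0.540). Plk1, Polo-like kinase, Aurkb, the kinase of the chromosomal passenger complex, and Birc5, survivin of the same complex, overlapped, with log2 fold changes of -0.04, -0.04 and -0.13.

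The spindle checkpoint genes Bub1 and Bub1b had log2 fold changes of 0.05 and 0.17, and Cdc20 and Ube2c, an activator and the ubiquitin-conjugating enzyme of the anaphase-promoting complex, of -0.15 and -0.24. All 4 overlapped between genotypes. Of the genes of chromosomes and spindle motors, Cenpf, a kinetochore protein, was higher in all Tet-TKO libraries. Cenpf was at 268, 275, 314 and 269 CPM in the Tet-TKO libraries, in the order 1 to 4, against 246 and 242 CPM in WT host cells. Its difference was small, at a log2 fold change of 0.12 (FDR 0.460). Top2a, topoisomerase II, Cenpe, a kinetochore motor, and Kif11, the motor that separates spindle poles, had log2 fold changes of 0.11, 0.07 and 0.19 and overlapped.

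Wide differences between the Tet-TKO libraries were found for Mki67, Ube2c and Kif11. Mki67 was at 79.1, 81.8, 163 and 151 CPM in the Tet-TKO libraries, in the order 1 to 4, against 96.0 and 116 CPM in WT host cells. Ube2c was at 509, 519, 395 and 319.7 CPM in the Tet-TKO libraries, in the order 1 to 4, against 502 and 479 CPM in WT host cells. Kif11 was at 48.3, 49.5, 76.1 and 69.4 CPM in the Tet-TKO libraries, in the order 1 to 4, against 45.7 and 53.8 CPM in WT host cells. Libraries 3 and 4 lay on one side of both WT host libraries and, for Mki67 and Ube2c, libraries 1 and 2 on the other side. The mean of libraries 3 and 4 differed from that of libraries 1 and 2 by a log2 ratio of 0.96 for Mki67, 0.57 for Kif11 and -0.52 for Ube2c. Both libraries 3 and 4 were above libraries 1 and 2 for 18 of 36 members (53.3% of all genes) and below them for 11 (23.8% of all genes). These libraries differ in depth per cell and number of cells as given above, and the part of either in these values was not tested.

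**Figure D3:**
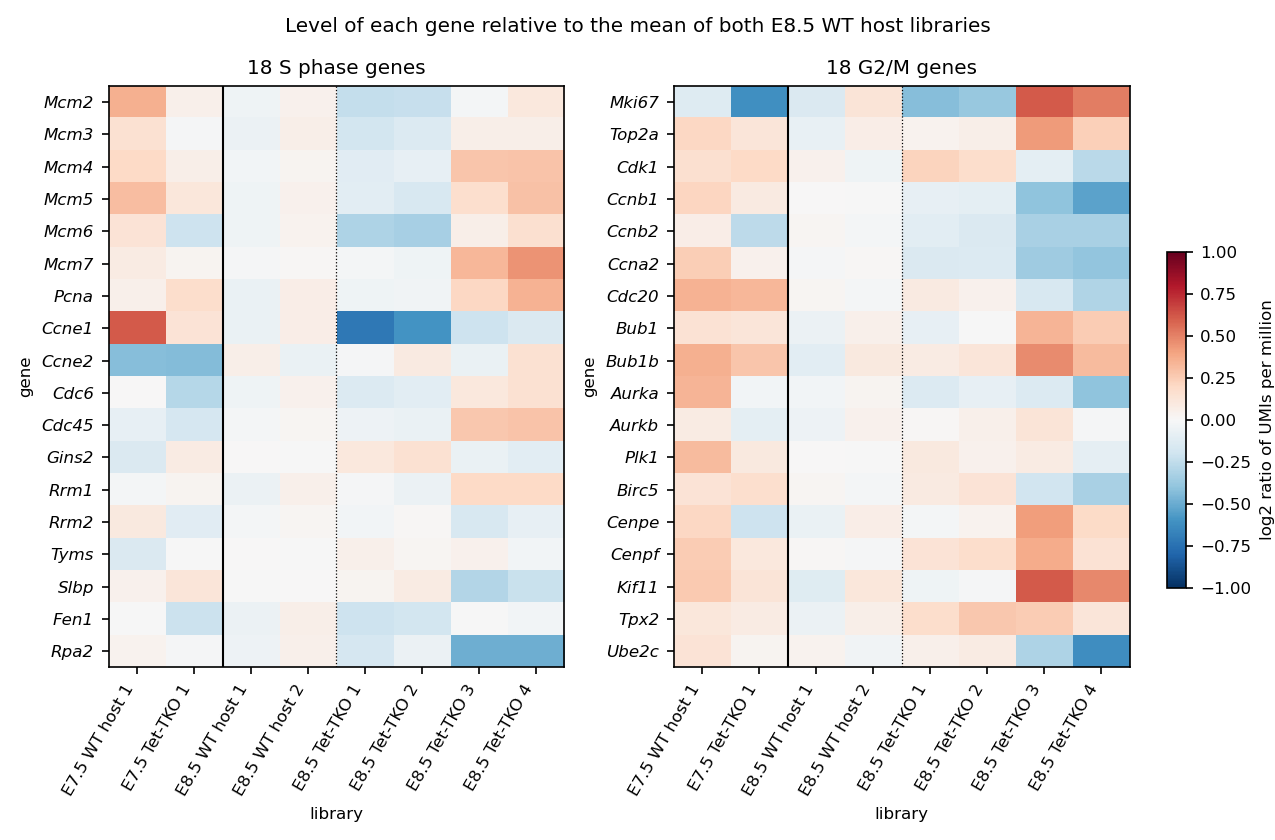
Level of each member in each library as the log2 ratio of its CPM to the mean of both E8.5 WT host libraries, with blue lower and red higher; the solid line separates E7.5 from E8.5 and the dotted line WT host from Tet-TKO. Ccne1 is at its lowest in Tet-TKO libraries 1 and 2, and Mki67, Kif11 and Ube2c set Tet-TKO libraries 3 and 4 apart from libraries 1 and 2.

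To compare like with like, cells were clustered without the cell cycle genes and the clusters named from marker genes where these allowed it, with "-like" added to each name. A test was possible in 26 cell groups, with 927 tests of members. At 1% FDR and an absolute log2 fold change of at least 1 it called 0 of 927, against 0.61% of 252317 tests of all genes. At 5% FDR with no minimum fold it called 2 of 927 (1.59% of all tests), and at an unadjusted p under 0.05 66 of 927 (7.12%), against 11.8%. The first of the calls was Ccne1 in erythroid-like cells, at 124 to 134 CPM in 3 Tet-TKO libraries and 165 and 186 CPM in the WT host cells. The ranges did not overlap, each Tet-TKO library being lower, as for 7.33% of the genes tested in these cells. The log2 fold change was -0.65 ± 0.12 (SE; FDR 0.0139, edgeR), where 6.17% of the genes tested in these cells were called. The Tet-TKO sums held only 19, 120 and 37 cells, of which 7, 41 and 4 scored as likely doublets, against 12.4% and 13.1% of the WT host cells. Without likely doublets the fold change was -0.42 and the FDR 0.190. The call was also lost without Tet-TKO library 1 (FDR 0.0589) and without either WT host library, which leaves 1 in that arm. In other fits of this group S phase genes passed 5% FDR as lower in Tet-TKO cells and 0 as higher. They were 1 without likely doublets, which was not Ccne1, 4 by DESeq2 and 6 with no filter on low counts. The share of all genes called in this group in these fits is not given. The second call was Bub1 in cluster 38, an unnamed cluster led by Sgce, Cdx1 and Etv2, at 63.4 and 70.4 CPM in 2 Tet-TKO libraries and 111 and 129.9 CPM in the WT host libraries, with a log2 fold change of -0.80 ± 0.20 (SE; FDR 0.0331, edgeR), where 1.67% of genes were called. Between 92.3% and 100% of the cells in these sums scored as likely doublets, and by DESeq2 the FDR was 1.00. It was lost too without Tet-TKO library 1 (FDR 0.0981) or 2 (0.326) and without WT host library 2 (0.266).

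Across cell groups 9 of the 34 members tested in at least 25 groups had the same sign in at least 23, 3 positive and 6 negative, which was common. Of the 4067 genes tested in at least 25 groups 16.1% were positive and 14.1% negative in at least 23. Tpx2 had a positive log2 fold change in 26 of 26 groups, with a median of 0.10, and Kif11 in 23 of 25 and Mki67 in 23 of 26, with medians of 0.23 and 0.29. Ccna2, Ccnb1, Ccnb2 and Rpa2 had a negative one in 24 of 26 groups each, with medians of -0.22, -0.17, -0.24 and -0.32, and Rrm2 and Mcm3 in 23 of 26, with medians of -0.21 and -0.12. The groups come from the same libraries and are not independent of each other. With Tet-TKO libraries 1 and 2 only, Mki67 was positive in 3 of 24 groups (median -0.24), Kif11 in 9 of 23 (-0.034) and Ccnb1 in 19 of 24 (0.041), while Tpx2 was positive in 21 of 24 (0.14), and Ccna2, Ccnb2, Rpa2, Rrm2 and Mcm3 were negative in 16, 20, 18, 16 and 22 of 24, with medians of -0.093, -0.097, -0.054, -0.064 and -0.13. Every Tet-TKO library of a group lay below its WT host libraries in 14 groups for Ccna2, 12 for Ccnb2, 11 for Rpa2 and 11 for Rrm2, where 13.9% of all tests did so. They lay above them in 6 groups for Tpx2, 6 for Top2a and 7 for Cenpf, where 11.3% of all tests did. These are the members with the most such groups out of 36. The share over all member tests is not given, so nothing is read from these counts.

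The sums varied widely between cell groups. In the 28 groups found in both WT host libraries, WT host means ran from 1603 to 3355 UMIs per 1000000 for S phase and from 768 to 3404 for G2/M. The highest G2/M mean was that of cluster 38, in which 92.3% and 100% of the 13 and 17 WT host cells scored as likely doublets, and the next was 3255 in primordial germ cell-like cells. The log2 ratio of the genotypes within 26 groups ran from -0.25 to 0.28 for S phase and, with the notochord-like cells at 0.81, from -0.27 for G2/M. Among 28 cell groups of E8.5 WT host cells, both libraries of the spinal cord-like cells had the highest S phase sum, at 3352 and 3359 UMIs per 1000000, and the forebrain, midbrain and hindbrain-like cells came next, at 3209 and 3175. The lowest S phase sums were those of visceral endoderm-like cells, at 1632 and 1575, followed by notochord-like and cardiomyocyte-like cells. Of the 27 steps between neighbours in this order 4 were wider than the spread of the libraries, among them the steps from spinal cord to brain and from brain to the next group. For the G2/M sum only 1 of 27 neighbouring pairs was apart, that of the notochord-like cells and the group above them. Spinal cord-like cells were highest for 9 of 18 S phase genes, among them Rrm2, Pcna and Mcm3 to Mcm7, where 1.34% of all features of at least 20 CPM were highest. Visceral endoderm-like cells were lowest for 6 of 18, among them Mcm3 to Mcm6, where 12.9% of all features were lowest. Both groups are singled out by the sum of these same genes, so these shares are not a like background.

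The notochord-like cells were the exception in the G2/M genes. This group, named from all 6 of its markers, among them Noto, Shh and Foxj1, a regulator of motile cilia, had a G2/M sum of 615 and 921 in the WT host libraries, against WT host means of 2645 to 3404 in the other groups found in both WT host libraries and 2294 in parietal endoderm-like cells, found in 1 of them. In the Tet-TKO libraries it was 855 and 1828, so the ranges of the genotypes overlapped. The 18 G2/M genes were lower there than the median of the other groups by a log2 difference of 0.37 (Bub1b) to 2.56 (Ccnb1), with a median of 2.03, and 17 of 18 had their lowest WT host mean there, Bub1b being the exception. For 12 of 18 both WT host values lay below every value of the other groups. Of 5598 features of at least 20 CPM, 9.72% had their lowest WT host mean and 2.75% both values below all others in these cells. The group is singled out by the sum of the same G2/M genes, so these shares are not a like background. Kif11 was at 8.62 CPM against a median of 49.7 CPM over all groups, Ccnb1 at 29.3 against 172 CPM and Ccna2 at 27.3 against 156 CPM.

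Of the S phase genes 6 of 18 were lowest in these cells, and their median log2 difference from the other groups was -0.64, from -2.05 for Rrm2 to 0.46 for Mcm2. The MCM genes went both ways, with Mcm2, Mcm4 and Mcm6 at 123, 142 and 184 CPM, above the median of all groups (90.0, 124 and 161 CPM), and Mcm5 at 84.2 CPM below it (141 CPM). Rrm2 was at 78.4 CPM against 324 CPM, Ccne1 at 33.9 against 97.1 CPM and Pcna at 113 against 259 CPM.

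The notochord-like cells were few and shallow, which limits these values. They numbered 44 and 17 in the WT host and 25 and 11 in the Tet-TKO libraries counted, with a median of 8465, 8080, 10284 and 24506 UMIs per cell. After thinning each cell to 5000 UMIs, the G2/M sums were 600 and 838 in WT host and 1074 and 1782 in Tet-TKO libraries, and 39.5%, 31.3%, 15.8% and 9.09% of the cells had no UMI of any G2/M gene. In the WT host libraries 26 of 44 and 4 of 17 cells scored as likely doublets, and without these the G2/M sums were 754 and 893. At E7.5 the group had 63 WT host and 22 Tet-TKO cells with G2/M sums of 2213 and 1751, the WT host value being the lowest of 25 groups. In the notochord-like cells 0 members were called, with 0.711% of the genes tested there at 5% FDR. Without Tet-TKO library 1, which leaves 1 Tet-TKO library of 11 cells, 12 G2/M and 3 S phase genes passed 5% FDR as higher in Tet-TKO cells, as did 10.0% of the genes tested in either direction. Without Tet-TKO library 3 it was 2 G2/M and 3 S phase genes (3.73% of all genes tested), and without WT host library 2 it was 3 G2/M genes (1.91%). In each of these fits 1 genotype is left with a single library, which is assumed to vary like the others.

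**Figure D4:**
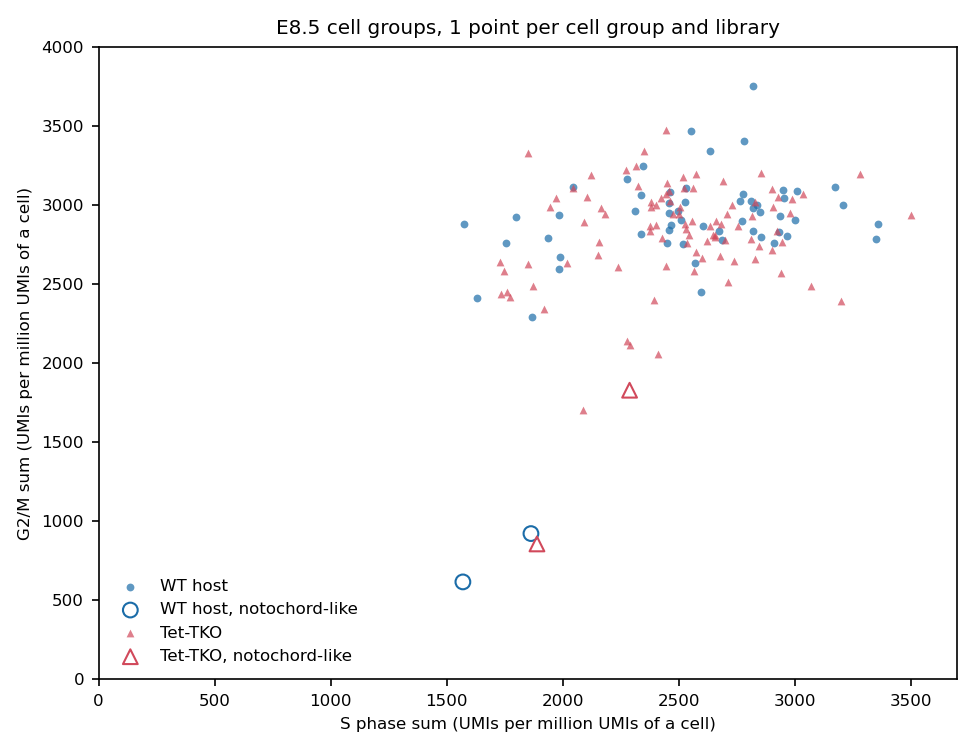
S phase sum (x axis) and G2/M sum (y axis), both in UMIs per 1000000 UMIs of a cell, with 1 point for each cell group in each E8.5 library in which it had at least 10 cells. The notochord-like cells of the WT host libraries, at a G2/M sum of 615 and 921, lie below the points of all other groups.

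Erythroid-like cells were the group in which the fractions differed most in numbers, with 3570 WT host cells and 176 Tet-TKO cells counted. Their G2/M sum was 3194, 3247 and 3122 in the first 3 Tet-TKO libraries against 2781 and 2634 in WT host cells, higher in all 3. Of these Tet-TKO cells 36.8%, 34.2% and 10.8% scored as likely doublets, against 12.4% and 13.1% of the WT host cells, and without them the G2/M sum was 2838, 3372 and 3076 against 2759 and 2616. Their S phase sum was 2573, 2316 and 2325 against 2689 and 2573. Haemoglobin took 2.95% to 6.42% of the UMIs of the Tet-TKO and 8.92% and 15.5% of those of the WT host erythroid-like cells. With haemoglobin, mitochondrial and ribosomal protein UMIs left out of the total, the G2/M sum was 4375, 4599 and 4574 against 4121 and 4263, higher again in all 3 but by a smaller ratio, and the S phase sum was 3542, 3274 and 3413 against 3978 and 4155, lower in all 3.

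At E7.5, with 1 library of each genotype, no test was possible. The S phase sum was 2581 in Tet-TKO and 2783 in WT host cells and the G2/M sum 3031 and 3275, a log2 ratio of -0.11 for each. The fractions differed in make-up, with 1886 extraembryonic ectoderm-like cells in the WT host and 14 in the Tet-TKO library. The G2/M sum of these cells was 3697 in WT host and 3052 in Tet-TKO cells. Of the 36 members 29 were lower in Tet-TKO cells, as were 61.3% of 7666 features of at least 10 CPM. Ccne1 was again among the lowest, at 133 CPM in Tet-TKO (95% Poisson interval 131 to 136) and 186 CPM in WT host cells (183 to 188), a log2 ratio of -0.48. Mki67 was at 69.4 (67.8 to 71.0) and 97.0 CPM (95.1 to 98.9), and Cenpe at 76.6 (74.9 to 78.3) and 102 CPM (99.9 to 104). The intervals cover counting error only. Of 22 cell groups 21 had a lower S phase sum in Tet-TKO cells and 14 a lower G2/M sum. The median log2 ratio over these groups was -0.117 for S phase and -0.058 for G2/M.

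Between the stages the levels of the cyclins E lay in opposite order, in both genotypes. Ccne1 was at 186 CPM at E7.5 and 116 and 127 CPM at E8.5 in WT host cells, and at 133 CPM and then 74.0 to 109.7 CPM in Tet-TKO cells. Ccne2 stood at 28.8 CPM at E7.5 and 37.0 and 40.3 CPM at E8.5 in WT host cells, and at 28.6 CPM and then 37.0 to 43.0 CPM in Tet-TKO cells. For both genes and both genotypes the E8.5 values did not overlap that of E7.5, which was common. Of the features of at least 20 CPM 56.4% were lower and 30.1% higher in all E8.5 libraries in WT host cells, and 30.1% and 34.2% in Tet-TKO cells, as were 26 and 4 of the 36 members in WT host and 9 and 9 in Tet-TKO cells. These are differences between single E7.5 libraries and the E8.5 libraries, with no test. In 6 cell groups named at both stages, allantois-like, extraembryonic mesoderm-like, gut-like, haematoendothelial progenitor-like, neuromesodermal progenitor and caudal epiblast-like, and presomitic mesoderm-like cells, the median log2 difference of Ccne1 (E8.5 minus E7.5) was -0.47 in WT host and -0.32 in Tet-TKO cells, and that of Ccne2 was 0.53 and 0.52. All E8.5 libraries were lower for Ccne1 in 5 of the 6 groups in each genotype and higher in 0. For Ccne2 they were higher in 4 groups in WT host and 5 in Tet-TKO cells and lower in 1 in each, with lowest log2 differences of -0.18 and -0.20.

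Within a library, cells were ordered along the cycle by the members themselves, to see how much each transcript followed the rest of its set. Cells were thinned to 5000 UMIs and the 25% with the most and the 25% with the fewest UMIs of the set were compared, with the gene in question left out. Cells tied at either limit were included, so each side can hold more than 25% of the cells. This is a description of how the genes go together in cells, with no test. The ratios were not computed for genes outside the 2 sets, so no share over all genes stands beside the counts. Of the G2/M genes 13 of 18 were over 1.5 times higher in the top than in the bottom 25% of cells in all 8 libraries. Ube2c had a ratio of 3.14 to 7.55, Aurka of 3.06 to 6.59, Plk1 of 2.63 to 5.83 and Cenpe of 3.05 to 5.46 over the libraries. Ccnb2, Birc5, Bub1 and Ccna2 followed their set least, with ratios of 1.08 to 1.34, 1.26 to 1.68, 1.24 to 1.75 and 1.25 to 1.87. All 18 S phase genes had a ratio over 1 in all 8 libraries, with Cdc6 (1.86 to 3.05), Ccne1 (1.61 to 2.78) and Ccne2 (1.60 to 2.90) among the highest and Rrm1 (1.07 to 1.32) and Tyms (1.01 to 1.30) lowest. Against the other set, 17 of 18 S phase genes were lower in the 25% of cells richest in G2/M UMIs in all 8 libraries. Likewise 16 of 18 G2/M genes were lower in the 25% richest in S phase UMIs in all 8 libraries. With these 25% taken within each cell group, an alternative added after seeing the data, the 4 counts were 12, 17, 17 and 17.

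**Figure D5:**
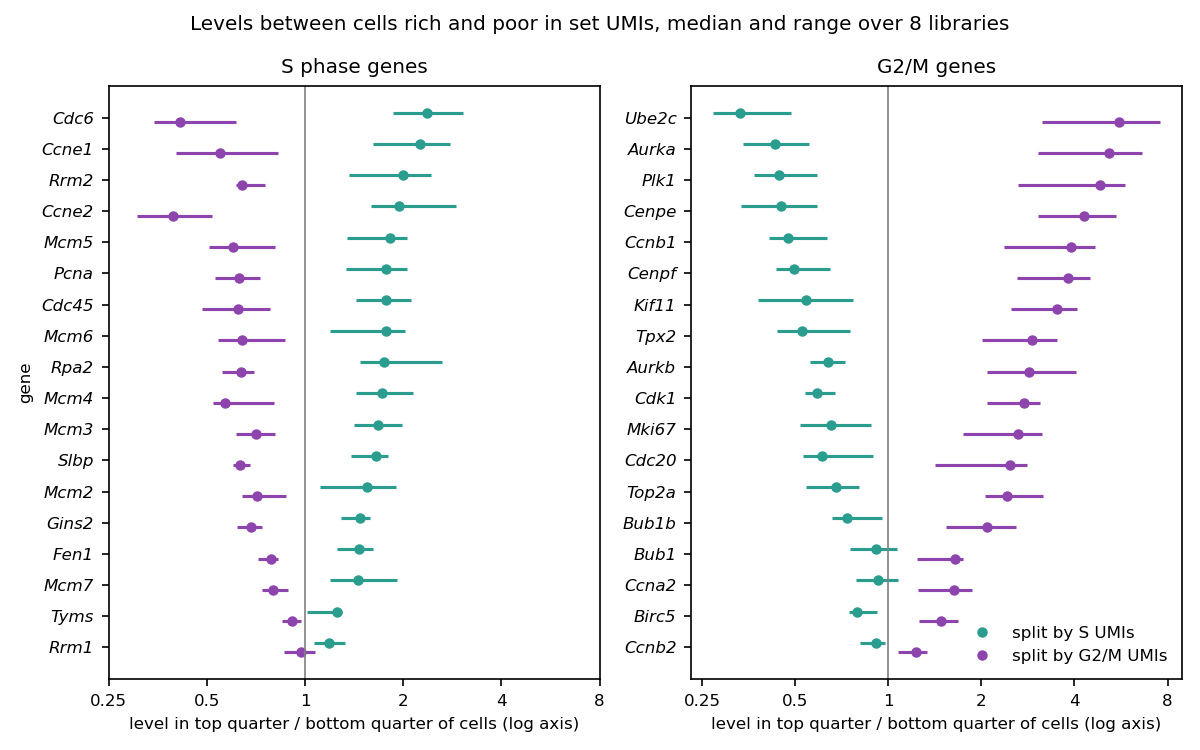
Ratio of each gene's level between the top and the bottom 25% of cells (ties included) by S phase UMIs (green) and by G2/M UMIs (purple). The axis is a log axis, with the median (point) and range (line) over 8 libraries. Genes of each set lie above 1 for their own set and mostly below 1 for the other, with Ube2c, Aurka and Plk1 farthest apart and Ccnb2, Rrm1 and Tyms nearest to 1.

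Between the genotypes the E8.5 ratios overlapped for 29 of 36 members, were higher in all Tet-TKO libraries for 5 (Ccne1, Cdc45, Ccnb1, Cdc20 and Aurka) and lower for 2 (Bub1b and Aurkb). The share of all genes that separate in this way was not computed, so nothing is read from these counts.

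Other cell cycle genes were taken from lists of 109 genes, all tested over all E8.5 cells. At 5% FDR 1 was higher and 2 were lower in Tet-TKO cells, where 3.74% and 6.75% of all genes were. Cdk6 was at 25.3, 23.8, 26.2 and 28.9 CPM in the Tet-TKO libraries, in the order 1 to 4, against 15.6 and 13.4 CPM in WT host cells. Cdk6, a kinase partner of D cyclins, was thus higher in all Tet-TKO libraries, with a log2 fold change of 0.76 (FDR 0.00826, edgeR). Cdc25b was at 7.14, 8.77, 10.0 and 9.14 CPM in the Tet-TKO libraries, in the order 1 to 4, against 15.4 and 25.6 CPM in WT host cells. This phosphatase, which activates CDK1, was lower in all of them (-1.32, FDR 0.0120). Cdt1 was at 45.5, 46.1, 49.0 and 50.5 CPM in the Tet-TKO libraries, in the order 1 to 4, against 56.0 and 61.8 CPM in WT host cells. Cdt1, which loads the helicase with CDC6, was lower as well (-0.39, FDR 0.0400). Each of these calls was lost without WT host library 2, with FDRs of 0.0753, 0.0545 and 0.310, those of Cdk6 and Cdt1 also without WT host library 1 (0.0563 and 0.140), and that of Cdt1 with each Tet-TKO library left out in turn (0.0756 to 0.0983). Over all alternatives 2 lost the call of Cdc25b, 3 that of Cdk6 and 8 that of Cdt1, not all of them by leaving out a library. The lists for pocket proteins with E2F and MuvB factors, for the replication fork, for spindle, kinetochore and exit, for CDK inhibitors and for p53 targets had no call over all cells. Within cell groups Cdk6 and Cdc25b had no call at 5% FDR, and Cdt1 had 1, as lower in erythroid-like cells. The part of cell make-up in the calls over all cells was not tested.

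Within cell groups 26 of 2523 tests of list genes passed 5% FDR, 13 higher and 13 lower, where 0.645% and 0.945% of all tests did. Only Ccnd2 and Cdkn1c were called in at least 3 groups. Over all E8.5 cells Ccnd2, a D cyclin of G1, was not called, with a mean of 311 CPM in Tet-TKO and 191 CPM in WT host cells (log2 fold change 0.59, FDR 0.225, edgeR) and 395 and 418 CPM in Tet-TKO libraries 3 and 4. It was lower in cardiomyocyte-like (150 against 274 CPM), endothelium-like (49.6 against 109 CPM), haematoendothelial progenitor-like (148 against 233 CPM) and mesenchyme-like cells (94.3 against 208 CPM) and higher in notochord-like cells (167 against 42.5 CPM). Cdkn1c, the CDK inhibitor p57 and an imprinted gene, was lower in allantois-like (1996 against 3271 CPM), extraembryonic mesoderm-like (341 against 608 CPM) and mesenchyme-like cells (151 against 313 CPM) and in cluster 38 (898 against 1412 CPM), nearly all of whose cells scored as likely doublets and for which no fit without them could be made. It was higher in erythroid-like cells (153 against 62.7 CPM) and in cluster 10 (359 against 212 CPM). These are means over libraries, and in each of these groups the ranges of the genotypes did not overlap. All of these calls but that of Cdkn1c in mesenchyme-like cells were lost on leaving out at least 1 library, and without likely doublets the difference of Cdkn1c in erythroid-like cells turned to a log2 fold change of -0.80 (FDR 0.375) and that of Ccnd2 in notochord-like cells had an FDR of 0.419.

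Among the genes outside the list whose level over cell groups was most like the S phase sum were Gart, Wdr12, Set and Dek, with a mean Pearson r of 0.92 to 0.93 in the WT host libraries over 13 cell groups, among 5499 genes. In the Tet-TKO libraries their r ran from 0.57 to 0.95. For the G2/M sum the genes were Zc2hc1a, Ufl1, Fnta, Smap1 and Chmp2b, with a mean r of 0.63 to 0.73, but in the Tet-TKO libraries r ran from -0.74 to 0.62, so this likeness did not carry over. Cell groups of a library share its depth and ambient RNA, and these values are a description.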

How the data were processed

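The authors sorted and sequenced 10x Genomics 3′ v3 libraries, ran Cell Ranger on mm10 with the GRCm38.92 annotation, to which tdTomato had been added, and deposited unnormalised UMI counts for every gene in every barcode. The header of the counts gives software version 3.1.0, which is not the Cell Ranger version that the study's methods name. No deposited count was altered here.

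Cells were kept with at least 1500 UMIs and at most 30% mitochondrial and 35% ribosomal protein UMIs, as in the study, which left 49866 cells. Each stage was clustered in scanpy 1.11.5 (2500 variable genes without the members and lists, 50 components, mutual nearest neighbour correction between libraries, Leiden resolution 2), and clusters were named from 3 or more raised markers. Cluster 20 was left unnamed after its leading genes were seen. Likely doublets were the cells with the highest Scrublet scores, 0.8% per 1000 barcodes, and were removed only as an alternative. Counts were summed per library, or per cell group and library with at least 10 cells, and tested with edgeR 4.0.16 (filterByExpr, TMM, quasi-likelihood) in R 4.3.3, libraries being the replicates. Where p-values are given they measure the spread between libraries, which may be partly technical. The study sorted both fractions from pooled embryos, but which libraries share a pool is not said. The tests were tried on simulated data. Cell group tests leave out libraries with fewer than 10 cells.

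The 36 members, the lists and the tests were chosen with earlier results of these data known. All members were named, and of the 109 list genes those called at 5% FDR over all cells or in at least 3 cell groups. Of genes outside the list, the 5 with the highest mean Pearson r with each sum were named, among genes of at least 20 CPM, except 1 that is not reported here. The distance of 50 bases around the start, in the promoter counts, and the order of cells within cell groups were chosen after seeing the data. Alternatives were DESeq2 1.42.0, its size factors, no filter, each library left out, a replicate block, Tet-TKO libraries 1 and 2 alone or summed, removal of haemoglobin genes or doublets, other clusterings and at least 30 cells per sum.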

Additional observations from a re-analysis of the deposited data

Results flagged for a closer look

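One library stood apart for 1 member. Among the E8.5 Tet-TKO libraries Cenpf was at 314 CPM in library 3 and between 268 and 275 CPM in the others, a gap of 0.860 of the whole range, which is above the 95% critical value of Dixon's test for 4 samples. Chance flags about 1 in 20 such groups, and all 36 members were looked at.

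In other cases every Tet-TKO library lay above the WT host libraries in one setting and below them in another. The S phase sum was higher in every Tet-TKO library in mesenchyme-like (log2 ratio 0.13) and notochord-like cells (0.28, with 2 Tet-TKO libraries). It was lower in every Tet-TKO library in blood progenitor-like (-0.19), endothelium-like (-0.15), forebrain, midbrain and hindbrain-like (-0.15) and surface ectoderm-like cells (-0.12) and in clusters 20 (-0.083), 35 (-0.24) and 36 (-0.15). The G2/M sum was higher in erythroid-like (0.24, with 3 Tet-TKO libraries) and spinal cord-like cells (0.10) and lower in surface ectoderm-like cells (-0.12) and, with 2 Tet-TKO libraries each, in neural crest-like cells (-0.074) and cluster 38 (-0.12). Bub1 was lower in cluster 38 (log2 fold change -0.80) and, in CPM, higher in erythroid-like and notochord-like cells, where its fold change was -0.013 and 1.63. Ccne1 was lower in erythroid-like (-0.65) and higher in mesenchyme-like (0.28) and notochord-like cells (1.04). Cenpf and Tpx2 were higher in Tet-TKO cells at E8.5 (log2 fold change 0.12 for each) and lower at E7.5 (log2 ratio -0.15 and -0.03, with 1 library of each genotype). None of these differences between groups or stages was tested.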

How the results depend on the processing

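The counts of called members depended on the test within cell groups more than over all cells. Over all E8.5 cells no alternative called a member at 1% FDR and a 2-fold change. At 5% FDR the count was 1 with DESeq2 (9.53% of all genes) and 5 with Tet-TKO libraries 1 and 2 only (22.2% of all genes). It was 0 with any Tet-TKO library left out (6.43% to 8.15% of all genes). Within cell groups the first rule called 5 tests of members with no filter on low counts and 8 with all variable genes in clustering. With a library left out it called 0 to 12, the highest without Tet-TKO library 1. That highest count came from notochord-like cells alone, with 1 Tet-TKO library of 11 cells left. The 8 calls were all in extraembryonic ectoderm-like cells and all lower in Tet-TKO cells. Of the 5 calls, 3 G2/M genes and 1 S phase gene were in notochord-like cells and 1 S phase gene in primordial germ cell-like cells. The share of all tests called by the first rule is not given for these fits. At 5% FDR with no minimum fold the count was 2 in the main fit. At 5% FDR it was 6 with DESeq2 (0.893% of all tests), 20 with no filter (2.33%), 30 with Tet-TKO libraries 1 and 2 only (6.48%), 0 with libraries 1 and 2 and libraries 3 and 4 summed (0.994%), 1 without doublets (1.56%), 1 with at least 30 cells per sum (1.5%), 14 with all variable genes in clustering (2.52%) and 0 (without Tet-TKO library 4, 1.4%) to 16 (without Tet-TKO library 1, 1.61%) with a library left out. The cause was not tested. All 50 alternative values of the S phase and G2/M sums stayed within the spread of the libraries of their main values, with log2 ratios from -0.11 to 0.02.

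The study compared cell type proportions of each Tet-TKO sample with those of a matching WT host, but no label says which numbers match. The deviations of same-numbered libraries had a correlation of 0.29 over 21075 genes. With the number as a replicate block in libraries 1 and 2, 9 members passed 5% FDR over all cells (34.3% of all genes) and 107 tests within cell groups (12.3% of all tests). The sign of the following log2 fold changes over all cells turned with the replicate block, to -0.083 for Mcm4, -0.017 for Mcm7, -0.024 for Pcna, 0.054 for Ccne2, -0.045 for Cdc45, 0.14 for Gins2, 0.0034 for Rrm2, 0.047 for Tyms, 0.069 for Slbp, -0.38 for Mki67, 0.21 for Cdk1, 0.081 for Cdc20, -0.026 for Bub1, 0.043 for Aurkb, 0.084 for Plk1, 0.13 for Birc5, -0.0085 for Kif11 and 0.080 for Ube2c. With Tet-TKO libraries 1 and 2 only and no block these were -0.084 for Mcm4, -0.017 for Mcm7, -0.027 for Pcna, 0.054 for Ccne2, -0.045 for Cdc45, 0.14 for Gins2, 0.0032 for Rrm2, 0.048 for Tyms, 0.069 for Slbp, -0.39 for Mki67, 0.21 for Cdk1, 0.081 for Cdc20, -0.027 for Bub1, 0.042 for Aurkb, 0.085 for Plk1, 0.13 for Birc5, -0.014 for Kif11 and 0.080 for Ube2c. With the libraries summed by 2 Rrm1 was at 0.011. With a library left out, the sign turned within -0.048 to 0.056 for Mcm4, -0.11 to 0.030 for Mcm5, -0.062 to 0.12 for Pcna, -0.082 to 0.032 for Ccne2, -0.022 to 0.064 for Cdc45, -0.12 to 0.026 for Gins2, -0.088 to 0.070 for Rrm1, -0.12 to 0.21 for Mki67, -0.16 to 0.067 for Cdk1, -0.040 to 0.12 for Bub1, -0.12 to 0.028 for Aurkb, -0.10 to 0.029 for Plk1 and -0.025 to 0.16 for Cenpe. Cdkn1c in erythroid-like cells turned to -0.80 without doublets. Over all named genes 61 alternative values turned in sign, whether or not they were called. Of those that kept their sign 63 lost and 11 gained a call and 605 did neither. The calls gained were those of Ccne1 in 3 alternatives, of Mcm2, Mcm6 and Cenpf in 2 each and of Fen1 and Tpx2 in 1 each.

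Depth sets further limits. E8.5 Tet-TKO libraries 3 and 4 hold few, deep cells, the WT host arm has 2 libraries, E7.5 has 1 library of each genotype, and groups such as the notochord-like cells rest on 11 to 44 cells per library. Where leaving out a library leaves 1 in an arm, as with either WT host library, that library is assumed to vary like the others.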

Other observations

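A list of 10 targets of the tumour suppressor p53, which halts the cycle after DNA damage, had no call over all E8.5 cells. Of its members 1, Bax, had a negative log2 fold change, and the median was 0.28, against 0.02 over all genes. Bbc3, which encodes the cell death protein PUMA, had a mean of 16.7 CPM in Tet-TKO and 11.5 CPM in WT host cells (log2 fold change 0.45, FDR 0.0563, edgeR) and Ccng1, cyclin G1, 23.4 and 17.0 CPM (0.38, FDR 0.0796). For both every Tet-TKO library was higher, as for 23.1% of all genes. Cdkn1a, the p53 target that encodes the CDK inhibitor p21 and is kept in the list of inhibitors, was at 17.5 and 17.8 CPM (-0.096, unadjusted p 0.659). It was called as lower in gut-like cells (a mean of 42.4 against 69.6 CPM, FDR 0.0424) and as higher in erythroid-like cells (22.3 against 9.35 CPM, FDR 0.0159). Within cell groups 4 of 190 tests of the list passed 5% FDR, all higher in Tet-TKO cells, where 0.645% of all tests did so. Ccng1 was higher in allantois-like cells (26.6 to 33.9 against 17.3 and 18.6 CPM) and mesenchyme-like cells (33.2 to 46.6 against 18.7 and 19.6 CPM), Bbc3 in mesenchyme-like cells (7.35 to 10.1 against 3.17 and 3.70 CPM) and Phlda3 in erythroid-like cells (12.6 to 21.5 against 5.67 and 6.04 CPM), where 7 of 19, 41 of 120 and 4 of 37 Tet-TKO cells scored as likely doublets.

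Cdkn2a, which encodes the CDK inhibitor p16 and the p53 activator ARF, was higher in surface ectoderm-like cells, at 4.74 to 8.97 CPM in Tet-TKO and 1.34 and 1.42 CPM in WT host libraries (log2 fold change 2.26, FDR 0.0282, edgeR), and in cluster 10, at 6.95 to 12.9 and 1.35 and 1.46 CPM (2.87, FDR 0.00513). Over all E8.5 cells it was not called (-1.03, FDR 0.224). These genes were named after their values were seen. Each of these calls within cell groups was lost when either WT host library was left out, with FDRs of 0.122 and 0.261 for Ccng1 in mesenchyme-like cells, 0.0684 and 0.129 for Cdkn2a in cluster 10 and between 0.0866 and 0.548 for the other calls, and of all these calls only those of Ccng1 in mesenchyme-like cells and Cdkn2a in cluster 10 held without each Tet-TKO library. That of Ccng1 in allantois-like cells was lost with each of them left out in turn (0.0569 to 0.0924), that of Bbc3 without library 2 or 3 (0.0742 and 0.0769), that of Phlda3 without library 1 or 2 (0.0868 and 0.106), those of Cdkn1a in gut-like cells without library 1, 2 or 3 (0.0681 to 0.0807) and in erythroid-like cells without library 1 or 2 (0.0510 and 0.0904) and that of Cdkn2a in surface ectoderm-like cells without library 1 or 4 (0.0566 and 0.0522).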
